A study of Homo sapiens with 24 samples.

Results

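The early response of RWPE1 cells to 1,25(OH)2D was measured in the 8 arrays of the 6 h time point, of 24 arrays in all. The RWPE1 line consists of immortalized human epithelial cells from normal prostate, and each array carried RNA of such cells in culture. The members were chosen by their titles: 4 arrays of cells that received 100 nM 1,25(OH)2D and 4 arrays of cells that received the vehicle, 0.1% ethanol, both for 6 h. The remaining 16 arrays belong to the same treatments at 24 and 48 h. Each value is the log2 intensity of a probe set, a group of short probes against the same transcript, on an Affymetrix U133 Plus 2.0 array. Changes are given on that log2 scale, as the average of treated arrays less the average of vehicle arrays. It counts as a rise or a fall where limma's adjusted p was under 0.05. All samples came from a single line, which the labels number as biological replicates, and nothing in the labels says whether the flasks were started on separate days. In these bulk samples, a change in the number of cells that transcribe a gene and a change in transcript per cell cannot be told apart.

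1,25(OH)2D is the hormonal form of vitamin D. It binds the vitamin D receptor (VDR), a nuclear receptor that pairs with a retinoid X receptor and binds DNA, most often at a direct repeat of a 6-base half-site with a spacer of 3 bases, called a DR3 element. In many tissues the best known target is CYP24A1, the enzyme that inactivates the hormone, and other targets act in calcium handling, innate defence, and growth control. Transcripts that change within the first hours can be direct targets of the receptor or can follow from early targets, and an array does not separate these.

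The study lists known or candidate response elements for several of the genes described here, and 7 of the sequences are shown to let their half-sites be compared. These arrays do not measure binding of the receptor at any of them. The capitals mark the 6-base half-sites on either side of the 3-base spacer in the stretch of each sequence that is most like a DR3 element on either strand.
CYP24A1: GAGTCAgcgAGGTGAgcgagggcg
CD14: GGGTCAaagAGTTGT
P2RY2: GGGTCAccaAGCTGA
HBEGF: GGTTCActgAGTACA
TXNRD1: AGGAAAaccTGTTCA
CYP26B1: AGGTGGccgTGCTCA
TRPV6: GGGGTAgtgAGGTCA
In the search pattern each half-site was A or G, then G, G or T, T, C or G, and A. The CYP24A1, CD14, P2RY2 and HBEGF sequences differ from it at 1 of the 12 half-site positions, the TRPV6 sequence at 2, and the TXNRD1 and CYP26B1 sequences at 3. These counts compare letters only and do not rank the sequences by binding, which the study examined separately by chromatin immunoprecipitation. Listed sequences that are not printed differ at 2 positions for AKAP12, at 3 for LOX and a further one of CYP24A1, and at 3 and 4 for SERPINB1. TRPV6, a calcium channel, did not pass the test at 6 h (log2 change 0.42, standard error 0.178, limma adjusted p = 0.509), and the other 6 genes rose.

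The 4 vehicle arrays were not equally close to each other. Over the 26000 probe sets tested, vehicle replicate 1 correlated with the other vehicle arrays at r = 0.9717 to 0.9811, and it was the array farthest from the mean of the other 3 in 70.9% of probe sets. Its values lay more than 1 log2 unit from that mean in 9.58% of probe sets, against 0.2% to 0.935% for the other vehicle arrays. Among the arrays with 1,25(OH)2D, replicate 3 was the farthest in 45.3% of probe sets and replicate 2 in 29.6%. After each group mean was subtracted, 1 principal component took up 78.5% of the remaining variance, with vehicle replicate 1 (-0.624) and 1,25(OH)2D replicates 1 (-0.275) and 2 (-0.385) on the opposite side from the other 5 arrays. The 3′ minus 5′ difference of the ACTB control probe sets, a measure of RNA integrity, was 0.76 in vehicle replicate 1 and 0.69 to 0.81 in the other vehicle arrays, and that of GAPDH was within 0.04 of 0 in all 8 arrays (log2). The genes in which vehicle replicate 1 stood lowest against the other vehicle arrays were MIRLET7D, CENPE, GOLGA8A, ZNF621 and GOLGB1, by 3.55 to 4.37 log2 units, and it stood highest in FCMR, H1-3, H1-4, C16orf95 and GAMT, by 1.44 to 1.76. None of these 10 genes passed the test at 6 h, with adjusted p of 0.94 to 1. Their choice by the distance of 1 vehicle array implies a wide vehicle spread, which makes a call unlikely. This outcome therefore does not show how that array affects the calls of other genes. The cause of the distance was not tested.

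**Figure D1:**
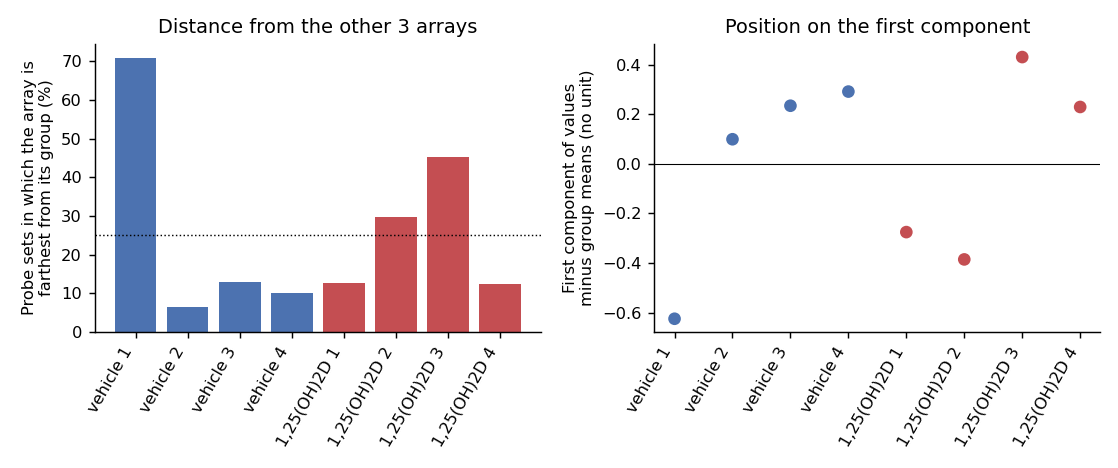
Position of the 8 arrays of 6 h within their groups. The left panel gives the percentage of 26000 probe sets in which each array was the farthest from the mean of the other 3 arrays of its group (dotted line at an equal share), and the right panel its position on the leading principal component after group means were subtracted (no unit). Vehicle arrays are blue and 1,25(OH)2D arrays are red. Vehicle replicate 1 was the farthest in 70.9% of probe sets and lies at -0.624 on the component.

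The arrays carried the markers of a basal-like epithelium. KRT5 and KRT14, the keratins of basal cells, measured 15.24 to 15.38 and 16.04 to 16.13 over the 8 arrays, and the keratins KRT8 and KRT18, which luminal cells carry, had vehicle means of 12.58 and 14.30 and treated means of 12.61 and 14.32. KLK3, the prostate-specific antigen of luminal cells, stayed at 3.42 to 4.19, near the lowest value that the filter kept (3.203). None of these keratins, nor KRT15, KRT19, CDH1 or EPCAM, passed the test at 6 h. In a longer list of basal genes 1 of 5 tested rose, the laminin chain LAMB3 described below, beside 2.36% of all genes tested. Of 8 fibroblast markers 3 passed the filter, of 6 endothelial markers 1, of 10 leukocyte markers 3 and of 6 neuroendocrine markers 1. The summed level of the 9 leukocyte markers named on the array was 5.96 to 6.16 with vehicle and 5.95 to 6.05 with 1,25(OH)2D, and PTPRC, the pan-leukocyte antigen, stayed at 3.22 to 3.82. For endothelium the sums were 5.49 to 5.67 and 5.45 to 5.86, and for neuroendocrine cells 4.99 to 5.14 and 4.95 to 5.04. The fibroblast sum was 10.12 to 10.60 with vehicle and 10.40 to 10.74 with 1,25(OH)2D. It came mainly from COL1A1, a collagen gene, at 9.70 to 10.41. THY1, a surface protein, was also above the filter, at 7.49 to 8.28, and LUM lay near the lowest value kept, at 3.15 to 3.52. COL1A2, COL3A1, DCN, PDGFRA and PDGFRB did not pass the filter.

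By limma's test 409 of 12010 genes changed at 6 h, which is 3.41% of the genes tested. Rises outnumbered falls: 284 genes rose (2.36%) and 125 fell (1.04%). With array weights, which gave vehicle replicate 1 little weight, the split was nearly even, with 519 rises and 477 falls. The rises were also larger. The median rise was 1.16 on the log2 scale, or 2.24-fold, and the median fall was -0.849, or 1.80-fold. Among the rises 178 were over 1 log2 unit, 65 over 2 and 10 over 4, whereas 45 falls were over 1, 5 over 2 and 1 over 4. The median change of all genes was -0.0287. In all 409 changed genes the 4 arrays with 1,25(OH)2D lay entirely on one side of the 4 vehicle arrays, as they did in 8.85% of all genes tested. The genes that rose had a median vehicle level of 7.32, those that fell one of 8.78, and all genes one of 8.10. In 19 of the genes that rose the vehicle mean was under the lowest value that the filter kept, so these passed the filter only through another group. Among the largest rises these include CD14, SEMA6D, MARCHF3, GEM, HCAR3, ADAMTS15, KLK6, AATBC, SHE and ARSI. Vehicle values that low vary little, so the standard errors and p of these genes rest in part on the floor of the scale. Of the 409 genes 194 had more than 1 tested probe set, and in 180 of these all probe sets moved in the same direction. In 87 of the 194 all probe sets were called alike. Without vehicle replicate 1 the count was 485 genes, and 383 of the 409 were still called. No sign could change by this omission, because the groups did not overlap in any of the 409. Leaving out vehicle replicate 2, vehicle replicate 4, 1,25(OH)2D replicate 1 or 1,25(OH)2D replicate 4 instead lowered the count to 254, 270, 272 and 256 genes.

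The gene with the largest rise was CYP24A1. It measured 4.06, 3.57, 3.52 and 3.48 in the vehicle arrays and 13.69, 13.65, 13.90 and 13.72 in the arrays with 1,25(OH)2D, which is a log2 change of 10.08 (standard error 0.142, limma adjusted p = 3.38e-08) or a 1085-fold ratio on this scale. All of its vehicle values lay near the floor of the scale, and vehicle replicate 1 was the highest of them. CD14, the co-receptor that hands bacterial lipopolysaccharide to Toll-like receptors, measured 3.21, 3.19, 3.09 and 3.08 with vehicle and 11.19, 11.20, 10.67 and 10.71 with 1,25(OH)2D (log2 change 7.80, standard error 0.145, limma adjusted p = 1.06e-07). In CD14 the treated replicates 1 and 2 stood above 3 and 4, and the vehicle values were all near the floor.

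Other genes with large rises differed in the level from which they started. G0S2, which inhibits the main lipase of stored triglyceride, went from 4.56, 4.55, 4.52 and 4.54 to 9.68, 9.55, 9.40 and 9.80 (log2 change 5.07, standard error 0.0989). PADI3, an enzyme that turns arginine into citrulline in epithelial proteins, started higher, with vehicle values of 8.52, 7.73, 7.74 and 7.64, and reached 12.23, 12.11, 12.35 and 12.42 (log2 change 4.37, standard error 0.198). Vehicle replicate 1 was the highest of the vehicle values of PADI3, and without it the change was 4.57. RASSF5, a Ras effector, went from 5.83, 5.79, 5.81 and 6.10 to 9.93, 9.82, 9.68 and 9.75 (log2 change 3.91, standard error 0.101), and SEMA6D, a transmembrane semaphorin, from 2.83, 2.96, 2.74 and 2.96 to 6.83, 6.58, 7.33 and 7.34 (log2 change 4.15, standard error 0.18). MARCHF3, a ubiquitin ligase, was at 2.04 to 2.11 with vehicle and at 5.04 to 5.35 with 1,25(OH)2D. A second probe set of MARCHF3, which did not pass the filter, had a change of 0.0. The long non-coding RNA UCA1 went from 6.74, 5.85, 6.55 and 5.47 to 9.40, 9.44, 9.84 and 9.87, with the widest vehicle range of these genes. Limma's adjusted p for these 6 genes lay between 1.18e-07 (G0S2) and 0.000415 (UCA1). Groups that did not overlap were a condition for being named among the largest rises. ABTB3, FOS, HCAR3, ADAMTS15, GEM, KLK6, AATBC, P2RY2, SHE, ARSI and CST6 complete the 20 largest rises with DUSP10, with changes of 3.06 (CST6) to 5.65 (ABTB3). HCAR3, a receptor for hydroxylated fatty acids, has a near-identical neighbour in HCAR2, and its probe set may read both.

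The deepest fall was that of PHACTR3, which binds actin and protein phosphatase 1. It measured 9.68, 9.86, 10.53 and 10.04 with vehicle and 6.18, 5.67, 5.95 and 6.03 with 1,25(OH)2D (log2 change -4.07, standard error 0.194, limma adjusted p = 2.55e-05). FIBIN, a secreted protein, went from 5.23, 6.02, 5.93 and 6.23 to 2.93, 2.58, 3.98 and 2.89 (log2 change -2.76, standard error 0.329), so that 3 of its 4 treated values lay under the lowest value kept. APCDD1, a membrane inhibitor of Wnt signalling, went from 8.96, 9.07, 8.91 and 9.34 to 6.97, 6.39, 6.89 and 6.69 (log2 change -2.34, standard error 0.154). Also among the 15 largest falls were EDN1, PRICKLE1, KCNJ15, PRR16, LRIG3, ETS2, PCDH7, FST, EVA1A, SHISA9 and FLI1, with changes of -2.06 (EDN1) to -1.47 (FLI1), and PTGER4, described below. FLI1, an ETS factor, had 2 other probe sets that did not pass the test, at -0.65 and -0.52. Probe sets that did not pass were also present for PCDH7 (-1.18 and -0.39), KCNJ15 (-0.24), PRICKLE1 (-0.069) and ETS2 (-0.024).

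**Figure D2:**
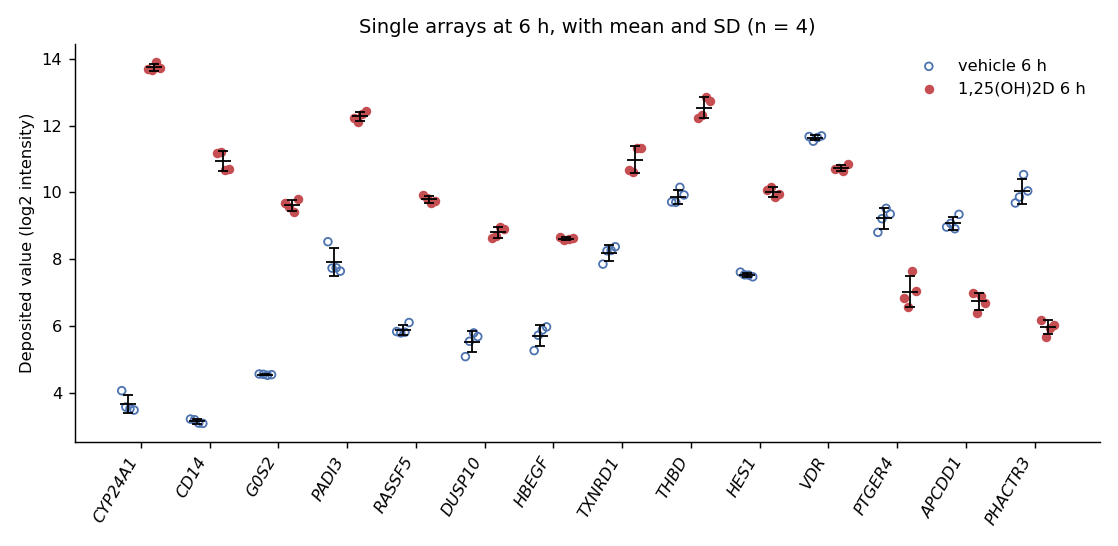
Log2 intensity of 14 genes in each of the 8 arrays at 6 h. Open blue circles are the 4 vehicle arrays and filled red circles the 4 arrays with 1,25(OH)2D, in replicate order from left to right, and the black marks give mean and SD (n = 4). The changes run from 10.08 log2 units in CYP24A1 to -4.07 in PHACTR3. The groups are apart in all 14 genes, as in every gene past the test.

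The hormone's own pathway moved in opposite directions. While CYP24A1 rose, the receptor VDR fell from 11.67, 11.53, 11.64 and 11.69 to 10.71, 10.73, 10.64 and 10.84 (log2 change -0.90, standard error 0.0804, limma adjusted p = 0.000667). The VDR arrays of each group lay within 0.2 log2 units of each other, and 3 of its 4 probe sets passed the test, with changes of -0.78 to -0.90. RXRA, the partner receptor (log2 change -0.44, adjusted p = 0.0681), and CYP27B1, the enzyme that makes the hormone (-0.69, adjusted p = 0.214), did not pass by limma's test. Of 6 tested genes for vitamin D metabolism and receptors 1 rose and 1 fell, beside 2.36% rises and 1.04% falls over all genes tested. Of 6 tested cofactors of the receptor 0 passed in either direction, which is near those shares. Their changes were -0.09 to 0.31, with 0 at an unadjusted p under 0.05.

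Among 21 tested genes that are known as vitamin D targets in other cells, 15 rose and 0 fell, with a median change of 2.32. Over all genes tested 2.36% rose and 1.04% fell, and the median change was -0.0287. The list of vitamin D targets was drawn up with earlier results of these data in view, so its count is a description and no independent evidence. Besides CYP24A1, CD14 and G0S2 it holds THBD, thrombomodulin, a brake on blood clotting, which went from 9.71, 9.70, 10.15 and 9.92 to 12.21, 12.32, 12.86 and 12.74 (log2 change 2.66, standard error 0.177, limma adjusted p = 0.000151). SERPINB1, an inhibitor of neutrophil proteases, rose by 2.72, SEMA3F, a secreted semaphorin, by 1.10, and GADD45A, a growth arrest gene, by 1.09. CDKN1A, the cell cycle inhibitor p21, had a change of 0.42 that did not pass (limma adjusted p = 0.211). It passed without vehicle replicate 1 (0.53, adjusted p = 0.022), which held the highest of the vehicle values, 9.16 against 8.70 to 8.74. CAMP, the antimicrobial peptide cathelicidin, stayed between 2.92 and 3.40 in the treated arrays and did not pass at 6 h (0.11, adjusted p = 1).

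Genes of growth factor and kinase signalling moved in both directions. HBEGF, a membrane-anchored ligand of the EGF receptor, went from 5.26, 5.72, 5.88 and 5.97 to 8.66, 8.56, 8.59 and 8.63 (log2 change 2.90, standard error 0.152, limma adjusted p = 3.91e-05). The treated HBEGF values lay within 0.10 of each other, and vehicle replicate 1 was the lowest. Of 10 tested genes of the EGF receptor family and its modulators 1 rose, HBEGF, and 1 fell, LRIG3, with a change of -1.61. Of 17 tested MAP kinase feedback inhibitors 2 rose and 4 fell. For this and all other lists here, the shares over all genes tested were 2.36% for rises and 1.04% for falls. DUSP10, a phosphatase that acts on the stress kinases p38 and JNK, went from 5.08, 5.54, 5.79 and 5.68 to 8.63, 8.70, 8.97 and 8.90 (log2 change 3.28, standard error 0.165, limma adjusted p = 3.36e-05), and DUSP1 rose by 0.75. The members that fell were DUSP6 (-1.34), DUSP5 (-0.95) and DUSP7 (-0.71), phosphatases that act mainly on ERK, and SPRY2 (-0.48), an inhibitor of receptor tyrosine kinase signalling. DUSP6 measured 10.84 in vehicle replicate 1 and 11.54 to 12.02 in the other vehicle arrays, and without that array its change was -1.58.

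Of 17 tested AP-1 and immediate early factors 5 rose and 1 fell. FOS, a subunit of AP-1, rose by 4.69, EGR3 by 2.38, FOSL1 by 1.44, MAFF by 0.98 and JUNB by 0.66. EGR3 measured 3.62, 3.33, 3.31 and 3.27 with vehicle and 5.91, 5.68, 5.66 and 5.80 with 1,25(OH)2D. IER3 fell, from 12.38, 11.92, 12.14 and 11.81 to 11.03, 11.04, 10.62 and 10.72 (log2 change -1.21, standard error 0.157, limma adjusted p = 0.00477). The median change of this list was 0.06. MYC had a change of -0.30 (adjusted p = 0.115). Among 11 tested Kruppel-like factors KLF4 rose by 1.68 and KLF5 fell by 0.52. KLF5 had a second probe set at -0.34 that did not pass, and the first did not pass without vehicle replicate 1 (limma adjusted p = 0.0506). Of 14 tested ETS factors 0 rose and 2 fell, ETS2 and FLI1.

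The redox genes that passed the test all rose. Of 23 tested NRF2 targets and redox enzymes 6 rose and 0 fell, with a median of 0.13. TXNRD1, thioredoxin reductase, went from 7.85, 8.25, 8.26 and 8.37 to 10.66, 10.60, 11.33 and 11.33 (log2 change 2.80, standard error 0.21, limma adjusted p = 0.000272), with the treated replicates 3 and 4 above 1 and 2. AKR1C1 and AKR1C2, reductases of steroids and other carbonyls, rose by 2.20 and 2.26. Their sequences are nearly the same, and the probe sets may read both. NFE2L2, which encodes the factor NRF2 itself, rose by 1.42 (adjusted p = 0.0126), with a second probe set at 1.24 that did not pass (adjusted p = 0.102). GCLC, of glutathione synthesis, rose by 1.34 and SRXN1, sulfiredoxin, by 0.62.

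Of 22 tested Wnt ligands, receptors and modulators 0 rose and 3 fell: APCDD1, PRICKLE1, a planar polarity protein, by 1.81, and the ligand WNT7A by 1.34. PRICKLE1 measured 6.63, 6.93, 7.64 and 7.22 with vehicle and 5.56, 4.86, 5.52 and 5.23 with 1,25(OH)2D. The median of this list was -0.06, against -0.0287 for all genes. Among 13 tested Wnt transducers and targets, the transcription factor TCF7L2 rose in all 6 of its probe sets, by 1.36 to 1.68, the corepressor TLE3 rose by 0.81 and TCF7L1 fell by 0.57. TCF7L1 did not pass without vehicle replicate 1 (adjusted p = 0.0522). Among 15 tested Notch genes the target HES1, a repressor, went from 7.61, 7.53, 7.52 and 7.47 to 10.08, 10.16, 9.85 and 9.94 (log2 change 2.48, standard error 0.092, limma adjusted p = 7.05e-06), while the ligands JAG1 and JAG2 fell by 1.04 and 0.81. In JAG1 vehicle replicate 1 was the lowest vehicle value, 11.18 against 11.69 to 12.08, and its call was lost in 9 of 19 alternatives.

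Secreted factors and their receptors also moved in both directions. Of 15 tested cytokines and chemokines 2 rose and 2 fell. TSLP, an epithelial cytokine that acts on dendritic cells, rose by 1.37 and IL1B by 0.86. IL6 fell, from 4.84, 4.82, 4.90 and 4.72 to 3.83, 3.31, 3.09 and 3.30 (log2 change -1.44, standard error 0.155, limma adjusted p = 0.00174), and so did IL1RN, the natural antagonist of IL-1, by 0.86, although 2 further probe sets of IL1RN did not pass. Of 10 tested NF-kB subunits and feedback genes 1 rose, the inhibitor NFKBIA, from 9.74 to 10.14 with vehicle to 11.16 to 11.51 with 1,25(OH)2D (log2 change 1.44, adjusted p = 0.000582). Of 11 tested innate sensing genes CD14 and IRAK2 rose and 0 fell, and the median was 0.01. Of 24 tested genes of TGF-beta and BMP signalling TGFB2 and ID1 rose, by 1.60 and 1.08, and the activin antagonist FST fell by 1.53, from 13.33, 13.55, 14.20 and 13.90 to 11.97, 11.89, 12.57 and 12.43. Among 16 tested genes of endothelin and VEGF signalling EDN1, endothelin, fell from 8.94, 8.80, 9.66 and 9.15 to 6.99, 6.31, 7.86 and 7.16, and VEGFC and FGFBP1 fell by 1.11 and 0.69, while NRP1 and ADM rose by 1.43 and 1.18. NRP1 was close to the threshold (limma adjusted p = 0.0488), and its call was lost in 10 of 19 alternatives. IGFBP3, which binds insulin-like growth factors, rose from 11.21, 11.20, 11.85 and 11.12 to 12.58, 12.48, 13.38 and 13.13 (log2 change 1.55, standard error 0.245, limma adjusted p = 0.0131), and among 11 tested genes of that axis 1 rose with all arrays and 2 without vehicle replicate 1.

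In prostaglandin metabolism the synthetic enzymes rose and a receptor fell. PTGS2, cyclooxygenase 2, went from 3.72, 4.56, 5.04 and 4.86 to 6.90, 6.43, 7.90 and 7.46 (log2 change 2.62, standard error 0.38, limma adjusted p = 0.00819), and PTGES, prostaglandin E synthase, from 7.43, 6.90, 6.82 and 6.87 to 8.66, 8.83, 8.30 and 8.54 (log2 change 1.58, standard error 0.17, limma adjusted p = 0.00175). PTGER4, a receptor for prostaglandin E2, went from 8.80, 9.21, 9.52 and 9.35 to 6.83, 6.56, 7.64 and 7.05 (log2 change -2.20, standard error 0.247, limma adjusted p = 0.00221). Vehicle replicate 1 was the lowest vehicle array for PTGS2 and PTGER4 and the highest for PTGES. The other 10 of the 13 tested genes of this list did not pass.

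Among genes of lipids and retinoids, 6 tested genes of retinoic acid metabolism gave 2 rises: CYP26B1, which degrades retinoic acid, by 2.47 (limma adjusted p = 0.000761), and CRABP2, which carries it to the nucleus, by 1.63. The cholesterol exporters moved apart. ABCA1 went from 5.42, 6.49, 6.46 and 6.46 to 8.79, 8.84, 9.69 and 9.29 (log2 change 2.95, standard error 0.297, limma adjusted p = 0.00123), whereas ABCG1 went from 9.34, 8.91, 8.62 and 8.78 to 7.93, 7.73, 7.03 and 7.15 (log2 change -1.45, standard error 0.24, limma adjusted p = 0.0169). Vehicle replicate 1 was the lowest vehicle value for ABCA1 and the highest for ABCG1, and without it the change of ABCA1 was 2.68. MYLIP, which leads the LDL receptor to degradation, fell by 1.02 in 1 of its 4 probe sets, and the other 3 did not pass. Of 13 tested genes of sterol and fatty acid synthesis 0 passed, with 2 at an unadjusted p under 0.05.

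Of 9 tested genes of plasminogen activation and its brakes 3 rose and 0 fell: THBD, PLAT, tissue plasminogen activator, from 4.41, 4.55, 5.15 and 4.92 to 6.98, 6.92, 7.20 and 6.93, and PLAU, urokinase, by 1.56. Of 4 tested kallikreins, serine proteases of glands and skin, KLK6 and KLK10 rose. KLK6 was at 2.18 to 2.39 with vehicle and at 6.32, 4.54, 7.25 and 6.92 with 1,25(OH)2D, the widest treated spread of the 20 largest rises, and 3 of the 4 kallikreins had a vehicle mean under the lowest value kept. Of 14 tested semaphorins and receptors 4 rose and 0 fell, SEMA6D, SEMA3F, the plexin PLXNA2 (1.14) and SEMA4B (1.02). In the family of contact-dependent ephrins the ligands EFNB2 and EFNA1 fell, by 1.39 and 0.92, and the receptor EPHB6 rose by 0.68, among 11 tested.

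AKAP12, a scaffold for protein kinase A, rose in all 4 of its probe sets, by 1.85 to 4.2, and MTSS1, which links membranes and actin, in both of its probe sets, by 1.29 and 2.27. AKAP12 measured 5.22, 6.43, 7.44 and 6.75 with vehicle, the widest range among the named genes that rose, and without replicate 1 its change was 2.30 (limma adjusted p = 0.0244). LOX, which crosslinks collagen, measured 7.59 in vehicle replicate 1 and 8.81 to 9.12 in the other vehicle arrays, so that its change was 1.94 with that array and 1.60 without it (adjusted p = 0.0404 and 0.0334). The call of LOX was lost in 9 of 19 alternatives. LAMB3, a laminin chain of the epithelial basement membrane, went from 10.34 to 10.77 with vehicle to 12.22 to 12.41 with 1,25(OH)2D. Among 19 tested junction genes CGN, cingulin of tight junctions, rose by 2.62 in 1 of its 2 probe sets, PKP1 rose by 0.45 (call lost in 9 of 19 alternatives) and CLDN1 fell by 1.07. Of all 8 tested claudins, counted after the values were seen, 2 rose and 1 fell. CLDN11 rose by 2.44 from vehicle values near the floor (2.87 to 3.01), and CLDN23 by 1.72 in 1 of its 2 probe sets. Of 7 tested squamous genes KRT13 and KRT16 rose, by 1.80 and 1.23, with calls that were lost in 9 and 10 of 19 alternatives.

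Of 18 tested G protein-coupled receptors and regulators 2 rose, HCAR3 by 4.65 and the nucleotide receptor P2RY2 by 3.82, and 4 fell, PTGER4, RGS2 by 1.10, the thrombin receptor F2R by 0.93 and the adenosine receptor ADORA2B by 0.60. Among 11 tested potassium and chloride channels KCNJ2 and KCNN4 rose, by 2.49 and 1.08, and KCNJ15 fell by 1.72. The calls of RGS2 and KCNN4 were lost in 10 and 9 of 19 alternatives. Among 15 tested genes of calcium channels, pumps and sensors GEM and CALML3 rose and 0 fell. Of 15 tested p53 targets GADD45A and TNFRSF10B rose, by 1.09 and 0.61, and PLK2 fell by 0.92. Of 13 tested genes of the unfolded protein and stress response DDIT4 and TRIB1 rose, by 0.90 and 0.96, and CHAC1 fell by 1.14.

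No listed gene of the cell cycle passed the test at this time with all arrays. Over all genes tested 3.41% passed, so 0 in a list of 20 or fewer genes is near that share. Of 20 tested mitosis genes 0 passed, with changes of -0.23 to 0.47 and 0 at an unadjusted p under 0.05 by limma. Of 20 tested DNA replication genes 0 passed, with changes of -0.19 to 0.18 and 1 at an unadjusted p under 0.05. Among 19 G1 cyclins, kinases and inhibitors 0 passed, with 3 at an unadjusted p under 0.05, and CCND1 had a change of -0.74 (adjusted p = 0.296). None of 17 tested interferon-stimulated genes passed (1 at an unadjusted p under 0.05), none of 18 genes of the electron transport chain (0), none of 11 members of the BCL2 family (3), none of 14 nuclear receptors (2) and none of 12 S100 proteins (2). GAPDH, of glycolysis, had a change of 0.063 with a standard error of 0.0723. Without vehicle replicate 1 a single gene passed in each of the G1, BCL2, S100 and sterol lists. Other lists also moved by 1 gene without that array. Falls went from 1 to 2 in the EGF receptor list, from 2 to 3 in the cytokine and Notch lists, from 3 to 4 in the endothelin and VEGF list, and from 0 to 1 in the semaphorin and retinoic acid lists. Rises went from 2 to 3 in the TGF-beta and p53 lists, from 1 to 2 in the ephrin list and from 15 to 16 among known vitamin D targets. The median standard error of a change was 0.153, and changes of called genes began at 0.39, so smaller effects were mostly beyond the precision of 4 against 4 arrays.

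**Figure D3:**
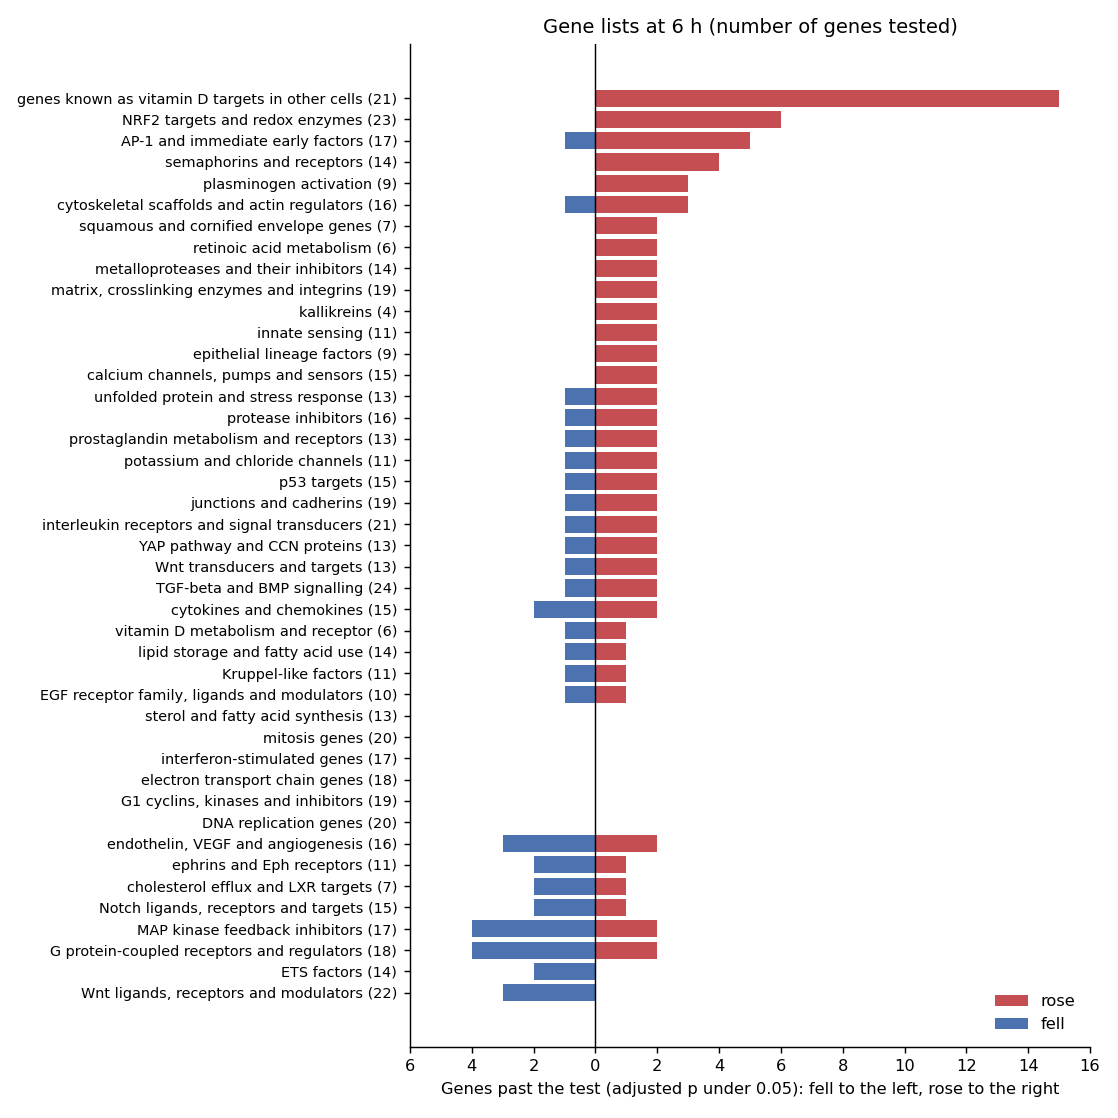
Number of genes that rose (red, to the right) or fell (blue, to the left) by limma's test at 6 h in gene lists, with the number of genes tested in brackets. Lists with more than 1 changed gene are drawn, with 6 lists in which 0 genes changed. The list of known vitamin D targets has 15 rises, the MAP kinase feedback inhibitors have 2 rises and 4 falls, and the Wnt ligands, receptors and modulators have 3 falls.

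To place the early response in time, the effect of 1,25(OH)2D at 6 h was compared with its effect at 24 and 48 h in a fit of all 24 arrays. The study's methods state that cells of the 48 h time point received fresh medium 24 h before harvest. Time and this change of medium cannot be told apart in the comparison with 48 h. The effect differed between 6 and 24 h in 341 of 12010 genes (2.84%) and between 6 and 48 h in 445 genes (3.71%). Of the 409 genes changed at 6 h 220 were among the first (53.8% of the changed genes and 64.5% of the differing genes), and 204 among the second (49.9% and 45.8%). The 6 h arrays enter both the choice of the changed genes and these differences. Of the 284 genes that rose at 6 h, 148 had a smaller effect at 48 h and 7 a larger effect, and for 129 the difference did not pass its test. Of the 125 that fell, 49 had a weaker effect at 48 h, 0 a stronger effect, and 76 did not pass. The median change of the early rises was 0.196 at 24 h and 0.284 at 48 h, and that of the early falls -0.261 and -0.295.

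Several of the largest early changes were small at the later times. The small GTPase GEM, an inhibitor of calcium channels, had changes of 4.26, 0.065 and 0.045 after 6, 24 and 48 h, and its effect at 6 h exceeded that at 48 h by 4.21 (standard error 0.127, limma adjusted p = 1.46e-14). GEM measured 2.88 to 2.93 with vehicle at 6 h, under the lowest value that the filter kept (3.203). Values this near the floor vary little, so the small standard error and p of GEM rest in part on the floor. MARCHF3 changed by 3.15, 0.14 and 0.001, and G0S2 by 5.07, 0.28 and 0.43. PHACTR3, with -4.07 at 6 h, changed by -0.25 and -0.064. A further group changed sign. ABCA1 changed by 2.95, -1.88 and -1.49 at these times, IGFBP3 by 1.55, -1.34 and -2.58, and CYP1A1, an oxidase of aromatic hydrocarbons, by 2.51, -0.66 and -1.63. The difference between 6 and 48 h was 4.43 for ABCA1, 4.13 for IGFBP3 and 4.14 for CYP1A1, each past its test (limma adjusted p of 5.84e-05, 1.81e-08 and 2.3e-08). CYP24A1 and CD14 stayed changed but less so, with 10.08, 6.10 and 5.99 for CYP24A1 and 7.80, 4.75 and 4.76 for CD14.

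Other early changes were kept or grew. UCA1 changed by 3.48, then 4.50 and 5.16, and the difference of -1.68 between 6 and 48 h passed its test (standard error 0.38, limma adjusted p = 0.0153). CST6, a cysteine protease inhibitor, changed by 3.06, 3.20 and 3.33, and CRABP2 by 1.63 at 6 h. Their differences between 6 and 48 h did not pass (adjusted p = 1 for both). The genes with the lowest effect at 6 h minus that at 48 h, apart from PHACTR3, did not pass at 6 h at all. These were DNER, a Notch ligand, with -0.12 at 6 h and 3.95 at 48 h, the phosphodiesterase GDPD3 with 0.17 and 3.07, KLK5 with 0.38 and 3.26, and AKR1C3 with 0.41 and 3.18. The plot of 6 h against 48 h changes shows these patterns for the genes past the test at 6 h.

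**Figure D4:**
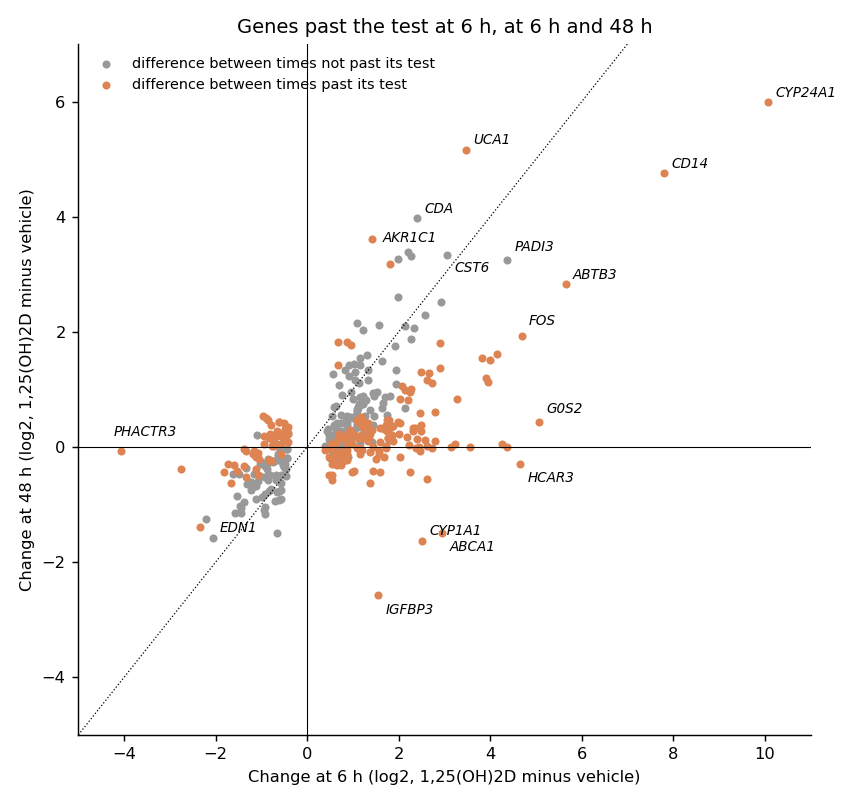
Change with 1,25(OH)2D at 6 h (horizontal axis, log2) and at 48 h (vertical axis, log2) for the 409 genes past limma's test at 6 h. Orange points are the 204 genes whose effects differ between both times past limma's test, grey points are the others, and the dotted line marks equal effects. Most early rises lie below the line, ABCA1, IGFBP3 and CYP1A1 lie below 0 at 48 h, and UCA1 lies above the line.

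To see whether the window around the start of early genes holds elements for the receptor, promoters from RefSeq (GRCh38.p14), of 250 bases before to 50 bases after the start, were searched for the DR3 pattern on both strands with up to 1 mismatch. A promoter was held for 9851 of the 12010 genes tested. The element was present in 8 of 227 promoters of genes that rose (3.52%), in 2 of 37 of the 50 largest rises (5.41%), in 2 of 100 of genes that fell (2.00%), in 360 of 9851 of all genes tested (3.65%) and in 1435 of all 27305 promoters of the table (5.26%). The share among early rises was therefore close to that of all tested genes, and this window says nothing of more distant elements. The 2 among the largest rises were AATBC, with the element AAGTCAccaAGTTCA at positions -119 to -105 from the start (chr21:43812672-43812686, minus strand), and CD14, with AGTTCAcaaGTGTGA across the start (chr5:140633166-140633180, minus strand). The promoter table used here holds no entry for CYP24A1, which was not searched. The CD14 promoter is printed because the gene had the second largest rise. It lies at chr5:140633126-140633425 on the minus strand of GRCh38.p14, and the capitals mark the half-sites of the element.
CD14 promoter: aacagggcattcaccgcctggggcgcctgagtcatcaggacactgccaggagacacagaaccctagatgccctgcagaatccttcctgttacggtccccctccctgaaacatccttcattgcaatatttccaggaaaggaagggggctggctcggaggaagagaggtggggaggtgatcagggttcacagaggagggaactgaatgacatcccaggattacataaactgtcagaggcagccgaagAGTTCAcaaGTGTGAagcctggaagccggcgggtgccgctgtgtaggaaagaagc
A match is a description of letters in this window. No promoter of the genes that rose held the element without a mismatch.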

How the data were processed

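RNA of RWPE1 cells was hybridised to Affymetrix U133 Plus 2.0 arrays, 4 per treatment and time. The authors normalized and summarised the arrays with gcRMA (version not given in the sources used here), and the deposited values are log2 intensities of 54613 probe sets and 62 controls. gcRMA pulls dim transcripts to a floor, so folds from that floor are uncertain. Array number, not read depth, limits the precision.

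Tests ran on the 26000 brightest probe sets, ranked by what 3 arrays of any group reach (lowest value 3.203). The authors' present calls were not used here. Of these, 21891 have a single gene symbol, and the brightest of them stands for each of 12010 genes. Groups were compared with limma 3.58.1 (R 4.3.3), with Benjamini-Hochberg adjustment over 26000 probe sets. Time effects came from all 24 arrays, fitted together.

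Genes are named by size (20 rises, 15 falls, neither overlapping), by list (at most 3 rises and 2 falls each), as markers, by the difference between 6 and 48 h, and by the distance of vehicle replicate 1. Further changed list members and CYP1A1 were named after their values were seen. Members and lists were chosen with earlier results of these data known. Promoters were RefSeq sequences. Alternatives concerned filter, scaling, offset, weights, replicate block, left-out arrays and SAM, the study's test, re-implemented at a false discovery rate of 5%. The tests were tried on simulated data. Other tools were Python 3.11.15, pandas 2.3.3, numpy 2.4.6, scipy 1.17.1 and matplotlib 3.10.9.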

Additional observations from a re-analysis of the deposited data

Results flagged for a closer look

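In 24 of 316 gene and group combinations of 6 h, 1 of the 4 arrays stood apart from the other 3 by Dixon's 95% criterion, which chance meets in about 1 of 20 groups. Of the 24 arrays, 20 were vehicle arrays and 16 were vehicle replicate 1. The genes examined include 10 that were chosen for the distance of vehicle replicate 1, which gave 4 of the 24. Among the others it was 12 of 20, in 296 combinations. The log2 levels of vehicle replicate 1 in these genes were ABCA1 (5.42), ARSI (3.20), CDH1 (12.18), CDKN1A (9.16), CYP24A1 (4.06), EGR3 (3.62), EPCAM (7.05), GOLGA8A (4.30), H1-4 (7.0), INSM1 (3.59), KLK3 (4.19), MIRLET7D (2.81), P2RY2 (5.74), PADI3 (8.52), PTGES (7.43) and ZNF621 (2.38). In 1,25(OH)2D replicate 2 they were CAMP (3.40), FOS (8.44) and PCDH7 (7.14). In 1,25(OH)2D replicate 3 it was FLI1 (5.79). In vehicle replicate 3 they were IGFBP3 (11.85) and TNFRSF10B (10.98). In vehicle replicate 4 they were IL6R (7.51) and RASSF5 (6.10).

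The effect of 1,25(OH)2D differed between 6 and 48 h past limma's test, adjusted over all 26000 probe sets, in 35 of 44 genes examined for this, against 3.71% of all genes. The 44 include 10 genes chosen for an extreme difference and the largest changes at 6 h, so the count is fixed in part by that choice. Subtracting the 48 h effect from the 6 h effect gave a log2 value above 0 in HCAR3 (4.96), G0S2 (4.64), ABCA1 (4.43), ADAMTS15 (4.36), GEM (4.21), CYP1A1 (4.14), IGFBP3 (4.13), CYP24A1 (4.09), SHE (3.57), ARSI (3.20), MARCHF3 (3.14), CD14 (3.04), AATBC (2.84), ABTB3 (2.82), FOS (2.76), RASSF5 (2.72), SEMA6D (2.54), KLK6 (2.48), DUSP10 (2.44), P2RY2 (2.28) and KRT15 (2.09). It was below 0 in DNER (-4.07), PHACTR3 (-4.01), GDPD3 (-2.90), KLK5 (-2.88), AKR1C3 (-2.78), CAMP (-2.72), FIBIN (-2.38), UCA1 (-1.68), KCNJ15 (-1.42), PRICKLE1 (-1.38), ETS2 (-1.29), EVA1A (-1.11), PRR16 (-1.03) and APCDD1 (-0.95). For the genes that fell at 6 h, a value below 0 means a weaker fall at 48 h. For UCA1, CAMP, DNER, GDPD3, KLK5 and AKR1C3 it means a higher effect at 48 h. No cause was tested for any of these values.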

How the results depend on the processing

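Limma called 699 probe sets and 409 genes at 6 h, and the effect differed from that at 24 h in 550 and from that at 48 h in 727 probe sets. Without a filter, with a stricter filter, a second quantile normalization, centring, an offset of 32, or limma's trend and robust options, the count of probe sets was 608 to 760 and that of genes 356 to 451. With array weights, which gave vehicle replicate 1 a weight of 0.196 and whose estimation stopped before it converged, there were 1765 probe sets, 1183 of them over 1.5-fold, 996 genes (519 rose, 477 fell), and 4203 and 2841 differences from 24 and 48 h. All 24 arrays in one fit gave 1082 probe sets and 626 genes, and SAM 1664 probe sets, 987 of them over 1.5-fold. Centring lowered the differences from 48 h to 466. Same-numbered arrays of both treatments had correlations of deviations of 0.756, -0.366, 0.588 and 0.67, and 3 of 8 arrays correlated best with their own number. Arrays with different numbers had correlations of -0.777 to 0.784. The labels give same-numbered arrays only a number in common, and whether they share a day or a batch was not tested. With the replicate block there were 824 probe sets and 471 genes at 6 h, and 334 and 438 differences from 24 and 48 h. Leaving out 1 array at a time gave 431 (vehicle replicate 2) to 818 (vehicle replicate 1) probe sets, 446 without 1,25(OH)2D replicate 4, 428 to 703 probe sets over 1.5-fold, 254 to 485 genes, 398 to 994 differences from 24 h (994 without 1,25(OH)2D replicate 1 of 24 h) and 569 to 738 from 48 h. The share of promoters of early rises with a DR3 element was 0.0% with 0 mismatches and 40.5% with 2, beside 0.162% and 40.2% for all genes tested. Of 118 named genes past the test, 28 lost the call without 1,25(OH)2D replicate 4, 27 without vehicle replicate 2 and 27 without vehicle replicate 4. Without vehicle replicate 1 these were 4, ABHD5, BHLHE40, KLF5 and TCF7L1. The genes that lost the call in 9 or more of 19 alternatives were ABHD5, BHLHE40, JAG1, KCNN4, KLF5, KRT13, KRT16, LOX, NRP1, PKP1, RGS2, TCF7L1 and TIMP2. AMOTL2, DUSP6, EPHB6 and SERPINB13 lost it in 8, and CLDN1, IL1RN and TGFB2 in 7. Without a filter, MARCHF3 is read by another probe set, with a change of 0.0. None of the called values examined turned its direction under these alternatives. For left-out arrays this was fixed in advance, because the groups of called genes did not overlap. The cause of these differences was not tested.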

Other observations

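Several gene families that were noticed after the values were seen held large early changes. Of 8 tested CHST sulfotransferases, which modify the sugar chains of proteoglycans, 3 rose and 2 fell, beside 2.36% rises and 1.04% falls over all genes tested. CHST11 rose by 2.47, CHST7 by 0.93 and CHST3 by 0.87, and CHST2 and CHST15 fell by 0.93 and 0.62. SULF1, which removes sulfate from heparan sulfate, rose by 2.92. Of 3 tested GATA transcription factors GATA6 rose by 2.03 and GATA2 by 1.99, and 0 fell. Other families counted in the same way held smaller shares of changed genes. Of 20 tested ARHGEF genes 4 rose and 2 fell, and of 8 claudins 2 rose and 1 fell. Of 209 SLC genes 8 rose and 0 fell, and of 5 H1 histone genes 0 rose and 0 fell.

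ZFP36, which destabilizes AU-rich messages, rose from 8.96, 8.73, 8.85 and 8.89 to 10.63, 10.64, 10.52 and 10.65, a change of 1.75 (standard error 0.0818, limma adjusted p of 2.48e-05). CEBPB, a transcription factor, rose by 1.11 from a high level, 13.48 to 13.64 with vehicle. The related coactivators CITED4 and CITED2 moved apart, by 1.69 and -1.12. CDA, cytidine deaminase, changed by 2.40 at 6 h, 3.40 at 24 h and 3.97 at 48 h.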
